A study of Homo sapiens with 12 samples.

Results

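The amino acid stress programme controlled by ATF4 was followed through 37 genes in LNCaP cells, an androgen-sensitive human prostate cancer line, after depletion of BRG1. BRG1, encoded by SMARCA4, is an ATPase of the SWI/SNF chromatin remodeller. The members were the rows of the deposited expression table whose Ensembl identifier maps to a list of 37 ATF4-linked gene symbols, and all 37 were found among 63568 genes. They were ordered by function into 8 transcription factors, 6 serine and one-carbon genes, 7 genes of asparagine and other amino acid enzymes, 8 amino acid transporters, and 8 feedback and other output genes. mRNA was sequenced in 12 libraries, with values given as TPM, the share of a library's transcripts after scaling for transcript length. Control cells received a non-targeting siRNA pool (si-NT, called Scrambled in the table) and BRG1 depleted cells received 1 of 2 siRNAs against SMARCA4. Cells were collected at 72 h, or at 144 h after being split and transfected a second time at 72 h. At each time point there were 2 si-NT libraries and 4 BRG1 depleted libraries, 2 for each siRNA. The siRNAs are named by the table as siRNA 2 and siRNA 3, whereas the sample titles call them 1 and 2 without stating which is which. For 1 library at 72 h the labels give both siRNA numbers. Whether the replicates came from separate cultures was not stated, so the spread between them may be partly technical.

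ATF4 is a bZIP transcription factor whose translation rises when kinases that sense amino acid shortage, unfolded protein or other stress phosphorylate eIF2. It then drives genes that make and import amino acids, often together with C/EBP family partners at a composite C/EBP-ATF element. Several of its targets, among them DDIT3, TRIB3 and CHAC1, form feedback or cell death arms of the same response. The libraries measured mRNA only, and ATF4 protein was not measured here.

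The core letters of the composite element, TGATGNAA on either strand, were searched in RefSeq promoters from 250 bases before to 50 bases after the transcription start (300 bases, table build GRCh38.p14). A promoter entry was found for 29 members, and 9 of them (31.0%) held the letters, against 3.62% of all 35116 promoters. Members were counted once per gene, with a match in any of its entries, whereas the 3.62% counts single promoter entries. The 9 windows are printed because they show which members carry this ATF4-linked sequence near their start. Each is on the strand of its gene with the matching letters in capitals, and each was located in GRCh37 by sequence match.
ASNS: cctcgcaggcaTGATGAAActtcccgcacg
ATF3: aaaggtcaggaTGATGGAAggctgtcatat
CEBPG: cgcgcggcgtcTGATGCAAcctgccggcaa
CHAC1: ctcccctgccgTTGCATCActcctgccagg
JDP2: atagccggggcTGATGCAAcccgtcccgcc
SLC1A4: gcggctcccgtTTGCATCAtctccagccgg
SLC1A5: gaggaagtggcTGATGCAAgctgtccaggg
SLC3A2: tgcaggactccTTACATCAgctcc
SLC7A1: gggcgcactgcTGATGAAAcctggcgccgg
The ASNS window lay at chr7:97501770-97501799 and the ATF3 window at chr1:212738547-212738576. The CEBPG window lay at chr19:33864966-33864995, that of CHAC1 at chr15:41245449-41245478 and that of JDP2 at chr14:75894698-75894727. Among the transporters, the windows lay at chr2:65216515-65216544 (SLC1A4), chr19:47288150-47288179 (SLC1A5), chr11:62649197-62649220 (SLC3A2, ending where the promoter entry ends) and chr13:30169800-30169829 (SLC7A1). Counted from the transcription start that RefSeq gives, the match began at -68 (ASNS), -191 (ATF3), -42 (CEBPG), -209 (CHAC1), -16 (JDP2), -7 (SLC1A4) and -97 (SLC1A5), before that start, and at position 8 (SLC7A1) and 38 (SLC3A2) after it. The annotated gene can begin farther upstream, and 7 of the 9 windows, those of ATF3 and SLC7A1 excepted, lay inside the gene as GENCODE annotates it on GRCh37. In CHAC1, SLC1A4 and SLC3A2 the letters read on the opposite strand to the gene. The motif was present in 4 of 7 transporter promoters, 3 of 7 transcription factor promoters, 1 of 5 promoters of the asparagine group, 1 of 7 feedback promoters and 0 of 3 serine and one-carbon promoters. The longer form TGATGNAAT was found in 0 of the 29 member promoters and in 0.991% of all promoters. A match of letters describes the sequence only, and no binding data were analysed here.

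The targeted gene followed the labels in every library. SMARCA4 measured 97 and 73.4 TPM in si-NT and 21.7, 19, 17.5 and 19.1 TPM in BRG1 depleted libraries at 72 h. Its levels at 144 h were 94.5 and 107 TPM in si-NT and 15.9, 16.2, 11.4 and 17.4 TPM in depleted libraries, so the groups did not overlap at either time. All 10 LNCaP markers were at or above 1 TPM at the median, including KLK3 and FOXA1, while 11 markers of other cell types summed to at most 12 TPM in any library and KRT5, TP63, PTPRC and CHGA were at 0 TPM at the median. The most abundant of these 11 were COL1A1, a collagen of stromal cells, at a median of 5.9 TPM (3.10 to 9.11), and SYP, a neuroendocrine marker, at 1.2 TPM (0.39 to 1.36). Of the 3 that were tested at 144 h, SYP was called higher in depleted cells (log2 fold change 0.66 ± 0.14, adjusted p = 0.00753) and the others were not called, and after spike-in scaling 0 of the 3 were called. Sequencing depth cannot be read from TPM and is unknown here. The share of TPM taken by the ERCC spike-in RNAs ranged from 0.805% to 1.97%, and no 2 libraries were identical. At 144 h this share differed between replicates 1 and 2 of a group. It was 0.805% and 1.34% in si-NT, 1.30% and 1.04% with siRNA 2, and 1.33% and 1.97% with siRNA 3. Values scaled by the spike-ins carry these differences.

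Differences between libraries of the same group preceded the comparisons. In si-NT at 72 h, replicate 2 lay above replicate 1 for 31 of 36 members, whereas it lay above for 51.9% of all genes tested. The widest gap was in DDIT3, at 84.6 and 292 TPM. In depleted cells at 72 h, siRNA 2 replicate 1 and siRNA 3 replicate 2 both lay below the other 2 libraries for 31 of 36 members, against 36.3% of all genes. This pattern crossed the siRNAs and was noticed after the values were seen. The 4 depleted libraries of 144 h lay closer together, and siRNA 3 replicate 2 was the lowest of them for 22 members. The matching share over all genes was not counted, so this order is not shown to be particular to the members. The fold change of siRNA 3 against siRNA 2 at 144 h was positive for 8 of 36 members and 33.3% of all genes.

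**Figure D1:**
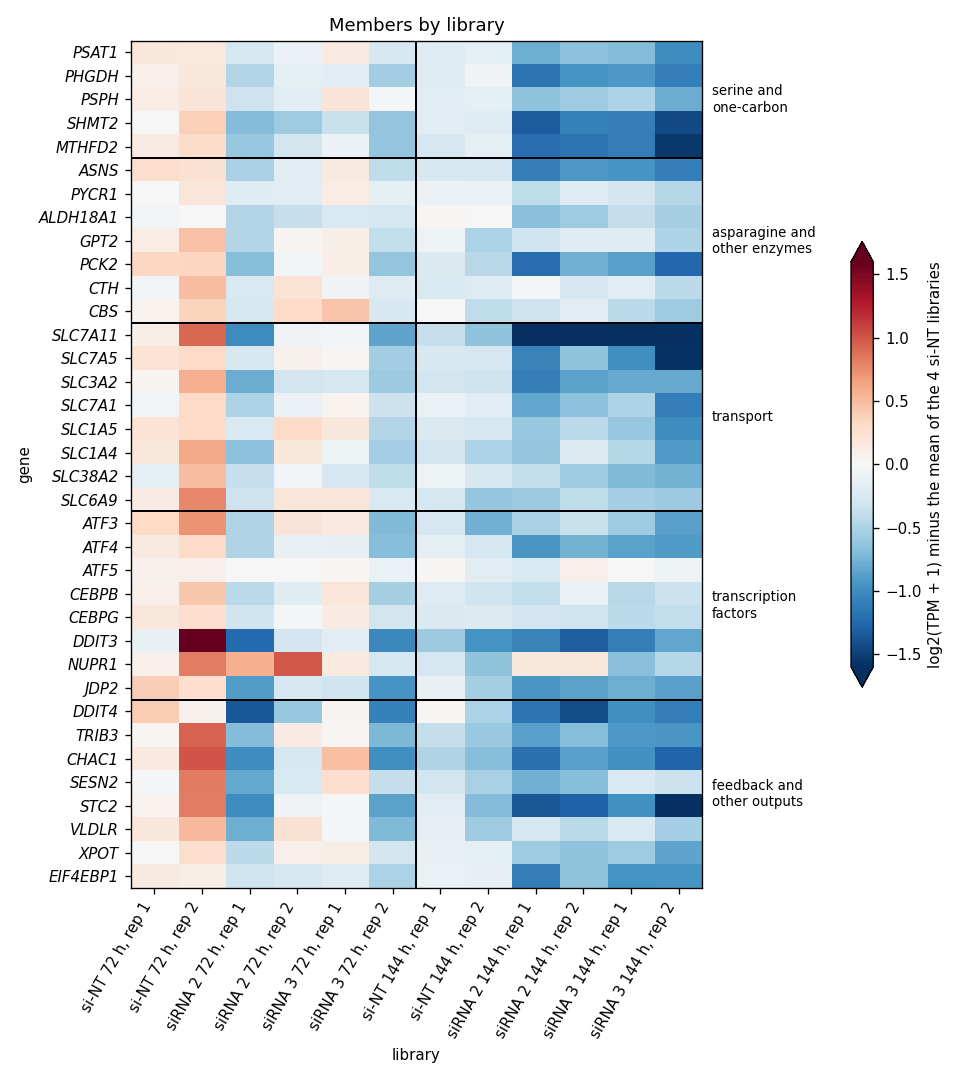
Expression of the 36 members that passed the filter on low values, in each of the 12 libraries (columns) as log2(TPM + 1) minus the mean of the 4 si-NT libraries. Rows are grouped by function, the vertical line separates 72 h from 144 h, and values beyond the colour bar take its end colour. In the serine and one-carbon rows and SLC7A11, as in rows such as ASNS and ATF4, the 4 depleted libraries at 144 h are the lowest of the 12. For DDIT3 si-NT replicate 2 at 72 h is highest (292 TPM).

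The effect of BRG1 depletion was tested at each time point by limma on log2(TPM + 1) across 16337 genes that reached 1 TPM in 2 or more libraries. Log2 fold changes refer to that scale, on which low genes appear to change less than they do, and carry their SE with Benjamini-Hochberg adjusted p over all genes tested. A gene was called at adjusted p under 0.05. ALDH1L2, a mitochondrial folate enzyme, stayed at or below 0.43 TPM in every library and was the only member not tested. Each culture was sequenced in bulk, so fewer cells expressing a gene and less RNA per cell cannot be told apart.

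Members of the programme were called lower, and never higher, in BRG1 depleted cells at both time points, with more calls at 144 h than at 72 h. At 72 h, 3 of 36 members were called lower (JDP2, SHMT2 and SLC3A2), where 0.557% of all genes were, and 0 were called higher, where 1.13% of all genes were. All 36 fold changes were negative with a median of -0.50, whereas the median over all genes was 0.06, and 26 members had an unadjusted p under 0.05, all of them lower. Of the 16337 genes tested, 757 passed that unadjusted limit lower and 1582 higher. At 144 h, 16 of 36 members were called lower against 10.8% of all genes, and 0 higher against 13.6%. The members and the related gene lists were chosen with earlier results of these data known. Their shares beside those of all genes are therefore not independent of these data. The median fold change at 144 h was -0.48 over the members and 0.03 over all genes, 20 members passed an unadjusted p of 0.05 in the lower direction and 0 in the higher, and 33 of 36 values were negative. Of the 16337 genes tested, 2714 passed it lower and 3299 higher at 144 h. With an added limit of 1.5 on the log2 fold change, 0 members were called at either time, where 0.11% (72 h) and 0.404% (144 h) of all genes were called lower and 0.0551% and 0.698% higher.

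The order of the libraries was also described, without a test. All 4 depleted libraries lay below both si-NT libraries for 21 of 36 members at 72 h, against 6.93% of all genes, and for 24 of 36 at 144 h, against 22.5%. The reverse order, all 4 above both, was found for 0 members at either time, against 16.3% and 26.1% of all genes. Every member called at a time point was among those without overlap.

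When any 1 library was left out, fewer of all genes were called lower at 72 h. Fewer were also called lower at 144 h when either si-NT library of that time was left out. The counts of members called also depended on single libraries and on the scaling. At 72 h the count fell from 3 to 0 without si-NT replicate 2, without siRNA 2 replicate 1 or without siRNA 3 replicate 2, to 1 without siRNA 2 replicate 2, and to 1 without each of 5 of the 6 libraries of 144 h. At 144 h it fell from 16 to 7 without si-NT replicate 1 and to 5 without si-NT replicate 2, each time leaving 1 control library assumed to vary like the other groups. The 5 genes called with every library left out in turn were SHMT2, MTHFD2, PHGDH, ALDH18A1 and EIF4EBP1. Scaling by the ERCC spike-ins lowered the median fold change over the tested genes to -0.11 (72 h) and -0.31 (144 h) and left 0 and 7 members called, with all 36 negative at both times. Without the filter on low values, 1 and 9 members were called lower, where 0.442% and 4.75% of all genes were. Over all genes at 144 h, 2222 were called higher and 1761 lower, against 138 and 614 after spike-in scaling, and at 72 h the counts were 184 and 91, against 138 and 147 after median-of-ratios scaling and 8 and 24 after spike-in scaling.

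**Figure D2:**
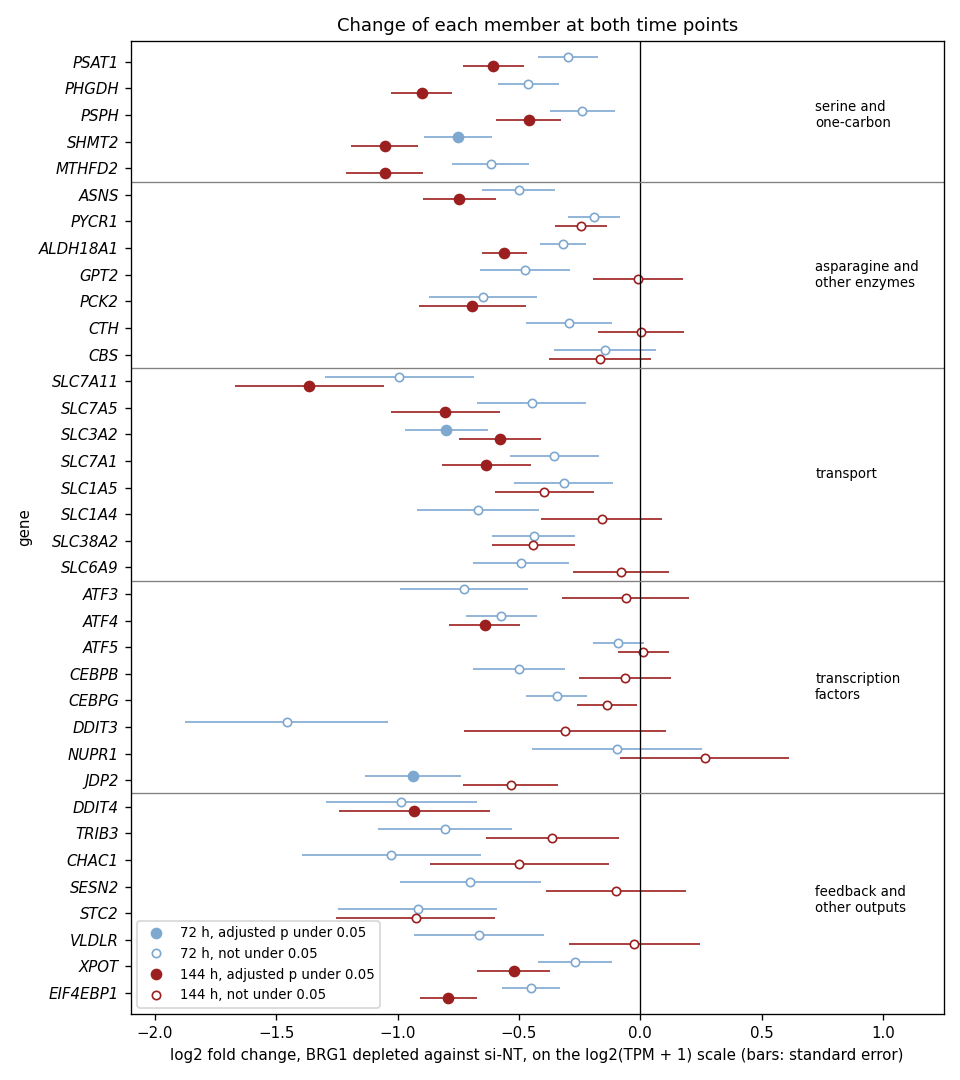
Log2 fold change of BRG1 depleted against si-NT on the log2(TPM + 1) scale (horizontal axis) for each of 36 members, with bars of 1 standard error. Pale symbols are 72 h, dark symbols 144 h, and filled symbols mark an adjusted p under 0.05. All 72 h values lie left of 0, and all 5 serine and one-carbon genes are filled at 144 h.

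Of the transcription factors, 1 of 8 was called lower at 72 h (JDP2) and 1 of 8 at 144 h (ATF4), with 0 higher. Over all genes 0.557% were called lower at 72 h and 10.8% at 144 h. The count of the factors at 144 h lies near the latter share. ATF4 itself, the activator of the programme (ENSG00000128272.10, chr22:39915700-39918688, plus strand, GRCh37), measured 446 and 499.8 TPM in si-NT and 289.6, 374, 370.5 and 251 TPM in BRG1 depleted libraries at 72 h, listed here and below as replicates 1 and 2 of si-NT and then replicates 1 and 2 of siRNA 2 and of siRNA 3. The values at 144 h were 362 and 332 TPM in si-NT and 212, 239, 223 and 215 TPM in BRG1 depleted libraries. The depleted libraries lay below both controls at each time, and the mean was 36.0% lower at 144 h. The difference was not called at 72 h (log2 fold change -0.57 ± 0.15, adjusted p = 0.0862) and was called at 144 h (log2 fold change -0.64 ± 0.15, adjusted p = 0.00947). JDP2, a bZIP repressor that dimerises with AP-1 and ATF partners, measured 20.2 and 18.5 TPM in si-NT and 7.69, 12.4, 11.9 and 7.45 TPM in BRG1 depleted libraries at 72 h. The 144 h libraries held 13.9 and 10.2 TPM in si-NT and 7.46, 7.92, 8.40 and 7.86 TPM in BRG1 depleted libraries. All 4 depleted libraries were lower than both controls at each time, and the call was made at 72 h (log2 fold change -0.94 ± 0.20, adjusted p = 0.0389) but not at 144 h (log2 fold change -0.53 ± 0.20, adjusted p = 0.0691).

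The other 6 factors were called at neither time. DDIT3, which encodes the stress factor CHOP, had the most negative member fold change at 72 h, -1.46 ± 0.42 (adjusted p = 0.124), and it was -0.57 without si-NT replicate 2. DDIT3 lies opposite MARS1, at a median of 128 TPM, and MBD6, at 24.3 TPM, and whether the counting used strand was not stated, so reads of these genes may not be told apart. The same holds for ATF5, opposite NUP62 at 66.0 TPM, whose values stayed within 24.3 to 30.7 TPM in all libraries with fold changes of -0.09 ± 0.10 and 0.01 ± 0.10. ATF3, a stress-induced repressor, had fold changes of -0.73 ± 0.26 at 72 h and -0.06 ± 0.26 at 144 h. CEBPB and CEBPG, bZIP partners of ATF4, had -0.50 ± 0.19 and -0.35 ± 0.12 at 72 h and -0.06 ± 0.19 and -0.14 ± 0.12 at 144 h. NUPR1, a small stress-induced chromatin protein, ranged from 247 to 784 TPM, the widest absolute span of the factors, and had fold changes of -0.10 ± 0.35 and 0.26 ± 0.35 with overlapping groups at both times.

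The serine and one-carbon genes were the group in which all tested members were called lower at 144 h, 5 of 5 against 10.8% of all genes. Their median fold change was -0.90. At 72 h 1 of 5 was called, against 0.557% of all genes, with a median of -0.46. These enzymes make serine from a glycolytic intermediate and pass its carbon to mitochondrial folate. PHGDH, the first enzyme of serine synthesis (chr1:120191034-120286841, plus strand), measured 499.9 and 535 TPM in si-NT and 342, 428, 422 and 322 TPM in BRG1 depleted libraries at 72 h. At 144 h it measured 413 and 453 TPM in si-NT and 210.1, 246, 249 and 222 TPM in BRG1 depleted libraries. The depleted libraries lay below the controls at both times and were 46.5% lower on average at 144 h, where the call was made (log2 fold change -0.90 ± 0.13, adjusted p = 0.000740) and not at 72 h (log2 fold change -0.46 ± 0.13, adjusted p = 0.107). PSAT1, the aminotransferase of the second step, measured 303 and 300.1 TPM in si-NT and 220.1, 251, 293 and 222 TPM in BRG1 depleted libraries at 72 h. At 144 h the values were 232 and 242 TPM in si-NT and 155, 169, 165 and 134 TPM in BRG1 depleted libraries. siRNA 3 replicate 1 came close to the controls at 72 h, and all 4 depleted libraries lay below them at 144 h (log2 fold change -0.61 ± 0.12, adjusted p = 0.00548). PSPH, the phosphatase that releases serine, measured 72.6 and 77.4 TPM in si-NT and 53.0, 59.3, 77.3 and 66.1 TPM in BRG1 depleted libraries at 72 h, where siRNA 3 replicate 1 reached the level of the controls. Later, at 144 h, it measured 59.3 and 59.7 TPM in si-NT and 42.2, 44.8, 47.3 and 38.1 TPM in BRG1 depleted libraries, without overlap (log2 fold change -0.46 ± 0.13, adjusted p = 0.0281).

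SHMT2, which transfers a carbon from serine to folate in mitochondria (chr12:57623356-57628718, plus strand), was called at both times. It measured 370.3 and 482 TPM in si-NT and 228, 250.1, 289.6 and 239 TPM in BRG1 depleted libraries at 72 h (log2 fold change -0.75 ± 0.14, adjusted p = 0.0262). At 144 h it measured 329 and 321 TPM in si-NT and 146, 174, 174 and 135 TPM in BRG1 depleted libraries, 51.7% lower on average (log2 fold change -1.05 ± 0.14, adjusted p = 0.000539). No depleted library reached a control at either time. MTHFD2, the next mitochondrial folate enzyme, measured 175 and 195 TPM in si-NT and 104, 130.3, 149 and 103 TPM in BRG1 depleted libraries at 72 h (log2 fold change -0.62 ± 0.16, adjusted p = 0.0893). The values at 144 h were 132 and 143 TPM in si-NT and 67.7, 69.6, 73.7 and 54.1 TPM in BRG1 depleted libraries (log2 fold change -1.05 ± 0.16, adjusted p = 0.00116). The 4 depleted libraries at 144 h were the lowest of the 12, with siRNA 3 replicate 2 the lowest of all.

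**Figure D3:**
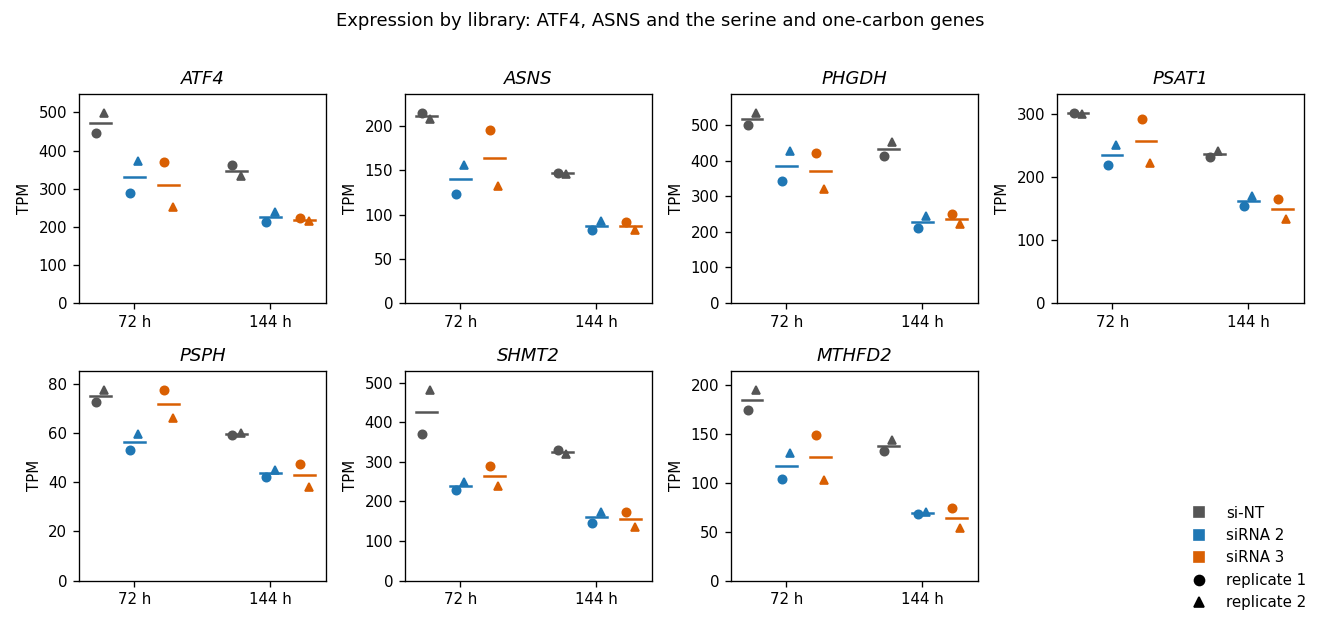
TPM (vertical axis, from 0) of ATF4, ASNS and the 5 tested serine and one-carbon genes in each library at 72 h and 144 h, with a short line at the mean of each pair. Grey is si-NT, blue siRNA 2 and orange siRNA 3, circles are replicate 1 and triangles replicate 2. At 144 h every blue and orange symbol lies below every grey symbol in all 7 genes, and the grey symbols are themselves lower at 144 h than at 72 h, as for ATF4 at 446 and 500 TPM against 362 and 332 TPM.

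Among the asparagine and other amino acid enzymes, all 7 were negative at 72 h. Of them 0 were called at that time, where 0.557% of all genes were called lower. At 144 h 3 of 7 were called lower, against 10.8% of all genes, with a group median of -0.25. ASNS, the asparagine synthetase that is a standard readout of ATF4 activity (chr7:97480989-97501854, minus strand), measured 215 and 209 TPM in si-NT and 123, 157, 196 and 132 TPM in BRG1 depleted libraries at 72 h. Its levels at 144 h were 147 and 146 TPM in si-NT and 82.2, 92.4, 91.5 and 82.1 TPM in BRG1 depleted libraries. The groups did not overlap at either time, although siRNA 3 replicate 1 came close to the controls at 72 h (log2 fold change -0.50 ± 0.15, adjusted p = 0.140), and the mean was 40.6% lower at 144 h (log2 fold change -0.75 ± 0.15, adjusted p = 0.00508). ALDH18A1, which starts proline synthesis from glutamate, measured 79.8 and 82.6 TPM in si-NT and 59.4, 63.6, 69.3 and 67.8 TPM in BRG1 depleted libraries at 72 h. At 144 h the values were 84.5 and 83.0 TPM in si-NT and 51.7, 55.2, 62.9 and 56.7 TPM in BRG1 depleted libraries, so the controls stayed level and the depleted libraries lay below them at both times (log2 fold change -0.56 ± 0.09, adjusted p = 0.00190 at 144 h). PCK2, the mitochondrial PEP carboxykinase, measured 104 and 105 TPM in si-NT and 51.2, 80.2, 89.0 and 52.8 TPM in BRG1 depleted libraries at 72 h (log2 fold change -0.65 ± 0.22, adjusted p = 0.189). The 144 h libraries held 69.9 and 60.5 TPM in si-NT and 34.9, 47.8, 44.5 and 34.0 TPM in BRG1 depleted libraries (log2 fold change -0.69 ± 0.22, adjusted p = 0.0406), again without overlap.

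The remaining enzymes were not called. PYCR1, the last enzyme of proline synthesis, kept the most even level of these 4, 213 to 335 TPM over all libraries, with fold changes of -0.19 ± 0.11 and -0.25 ± 0.11. At 144 h its 4 depleted libraries, at 213 to 253 TPM, lay below both si-NT libraries, at 273 and 275 TPM. GPT2, a mitochondrial alanine aminotransferase, had -0.47 ± 0.19 at 72 h and -0.01 ± 0.19 at 144 h. CBS and CTH, the enzymes of transsulfuration that turn homocysteine into cysteine, overlapped the controls at both times. CBS had fold changes of -0.14 ± 0.21 and -0.17 ± 0.21, and CTH had -0.29 ± 0.18 and 0.0027 ± 0.18.

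Of the 8 transporters, 1 was called lower at 72 h (SLC3A2), against 0.557% of all genes, with a group median of -0.47. At 144 h 4 were called lower, against 10.8% of all genes, with a median of -0.51. SLC7A11, the cystine importer of system xc- (chr4:139085251-139163503, minus strand), showed the most negative fold change of all members at 144 h. It measured 13.8 and 25.3 TPM in si-NT and 5.92, 12.4, 12.4 and 6.75 TPM in BRG1 depleted libraries at 72 h (log2 fold change -0.99 ± 0.31, adjusted p = 0.150). At 144 h it measured 9.72 and 7.91 TPM in si-NT and 3.04, 2.66, 3.57 and 2.08 TPM in BRG1 depleted libraries, 67.8% lower on average (log2 fold change -1.36 ± 0.31, adjusted p = 0.00872). The 4 depleted libraries at 144 h were the lowest of the 12. SLC3A2, the heavy chain shared by SLC7A11 and SLC7A5, measured 158 and 229 TPM in si-NT and 87.5, 125, 126 and 102 TPM in BRG1 depleted libraries at 72 h (log2 fold change -0.80 ± 0.17, adjusted p = 0.0410). The values at 144 h were 125 and 121 TPM in si-NT and 71.1, 83.9, 86.8 and 87.5 TPM in BRG1 depleted libraries (log2 fold change -0.58 ± 0.17, adjusted p = 0.0292). The depleted libraries lay below the controls at both times.

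SLC7A5, the large neutral amino acid carrier that pairs with SLC3A2, measured 58.7 and 62.4 TPM in si-NT and 41.8, 52.6, 50.9 and 33.8 TPM in BRG1 depleted libraries at 72 h (log2 fold change -0.45 ± 0.22, adjusted p = 0.401). Later, at 144 h, it measured 42.0 and 41.5 TPM in si-NT and 23.5, 31.8, 25.0 and 16.2 TPM in BRG1 depleted libraries, 42.2% lower on average (log2 fold change -0.80 ± 0.22, adjusted p = 0.0233). Its lowest value was in siRNA 3 replicate 2 at 144 h. SLC7A1, a carrier of arginine and lysine, measured 41.9 and 53.8 TPM in si-NT and 30.3, 40.4, 45.1 and 33.6 TPM in BRG1 depleted libraries at 72 h, with siRNA 3 replicate 1 above a control library. At 144 h it measured 40.1 and 38.3 TPM in si-NT and 23.8, 26.9, 30.2 and 19.7 TPM in BRG1 depleted libraries without overlap (log2 fold change -0.64 ± 0.18, adjusted p = 0.0271). The neutral amino acid carriers SLC1A5, SLC1A4 and SLC38A2 and the glycine carrier SLC6A9 were called at neither time, with 144 h fold changes of -0.39 ± 0.20, -0.16 ± 0.25, -0.44 ± 0.17 and -0.08 ± 0.20. SLC6A9 lies opposite CCDC24, at a median of 16.7 TPM.

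Of the 8 feedback and other output genes, 0 were called at 72 h, with 0 higher and a median fold change of -0.75. At that time 0.557% of all genes were called lower. At 144 h 3 of the 8 were called lower, against 10.8% of all genes, with a median of -0.51. EIF4EBP1, the repressor of cap-dependent translation, measured 331 and 324 TPM in si-NT and 241, 249, 260.3 and 211 TPM in BRG1 depleted libraries at 72 h (log2 fold change -0.45 ± 0.12, adjusted p = 0.0982). Its levels at 144 h were 278 and 273 TPM in si-NT and 139, 191, 154 and 156 TPM in BRG1 depleted libraries, 41.9% lower on average (log2 fold change -0.79 ± 0.12, adjusted p = 0.00117). No depleted library reached a control at either time. DDIT4, an inhibitor of mTORC1, measured 329.8 and 262 TPM in si-NT and 96.8, 164, 257 and 117 TPM in BRG1 depleted libraries at 72 h, with siRNA 3 replicate 1 just below a control (log2 fold change -0.98 ± 0.31, adjusted p = 0.159). The 144 h libraries held 255 and 176 TPM in si-NT and 111, 92.7, 126 and 115 TPM in BRG1 depleted libraries, without overlap but with the 2 controls far apart (log2 fold change -0.93 ± 0.31, adjusted p = 0.0486). XPOT, the nuclear export receptor of tRNA, measured 142 and 174 TPM in si-NT and 107, 151, 153 and 116 TPM in BRG1 depleted libraries at 72 h, where the groups overlapped. At 144 h the values were 132 and 130.0 TPM in si-NT and 96.8, 91.1, 96.5 and 79.8 TPM in BRG1 depleted libraries, without overlap (log2 fold change -0.52 ± 0.15, adjusted p = 0.0270).

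TRIB3, a pseudokinase that restrains ATF4 signalling, CHAC1, which degrades glutathione, SESN2, a leucine-binding inhibitor of mTORC1, STC2, a secreted glycoprotein, and VLDLR, a lipoprotein receptor, were called at neither time. Their fold changes at 72 h were -0.80 ± 0.27, -1.03 ± 0.37, -0.70 ± 0.29, -0.92 ± 0.33 and -0.66 ± 0.27 in that order. Without si-NT replicate 2 of 72 h, TRIB3 stood at -0.35, CHAC1 at -0.60, SESN2 at -0.27 and STC2 at -0.53, and without replicate 1 TRIB3 stood at -1.26 and SESN2 at -1.13. The same genes had, at 144 h, -0.36 ± 0.27, -0.50 ± 0.37, -0.10 ± 0.29, -0.93 ± 0.33 and -0.02 ± 0.27. Their standard errors, at or above 0.27, were among the widest of the members, and the 2 si-NT libraries of 72 h stood far apart in most of them, as for CHAC1 at 20.3 and 37.5 TPM. The nearest to a call was STC2 at 144 h (adjusted p = 0.0600), with all 4 depleted libraries below both controls.

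**Figure D4:**
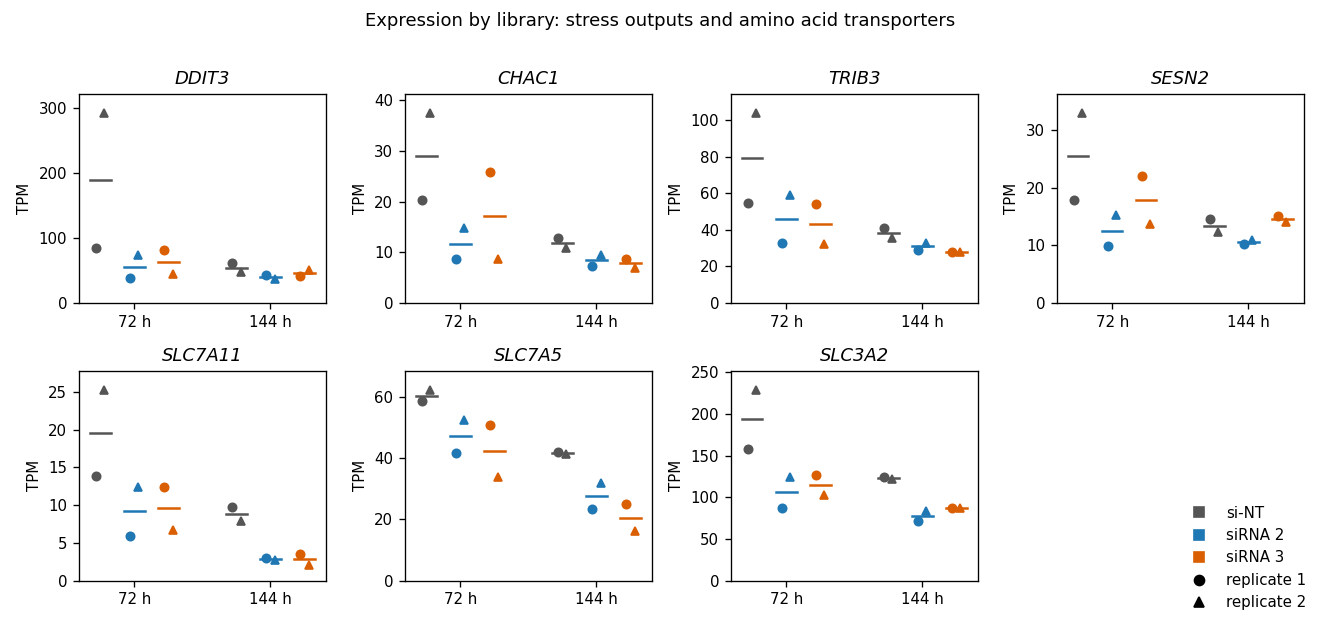
TPM (vertical axis, from 0) of 4 stress outputs and 3 transporters in each library at 72 h and 144 h, with a short line at the mean of each pair and the same colours and symbols as for ATF4 and the serine genes. si-NT replicate 2 at 72 h stands above every other library for DDIT3, CHAC1, TRIB3 and SESN2, and the depleted libraries of SLC7A11 at 144 h lie between 2.08 and 3.57 TPM, below si-NT at 9.72 and 7.91 TPM.

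Whether the response grew with time was tested as the difference between the 144 h and the 72 h change. For this difference 0 of 36 members were called, where 0.0122% of all genes were called higher and 0.00612% lower, and 1 member passed an unadjusted p of 0.05 (lower) while 0 did so higher. Of the 16337 genes tested, 1038 passed that unadjusted limit lower and 905 higher. The difference was positive for 17 of 36 members, against 46.4% of all genes, with medians of -0.005 and -0.026. All 5 tested serine and one-carbon genes had a more negative change at 144 h, by 0.22 (PSPH) to 0.44 (PHGDH) on the log2 scale. Conversely 7 of 8 transcription factors had a less negative change, led by DDIT3 at 1.15 ± 0.59, adjusted p = 0.462, whose change at 72 h was the one that shrank without si-NT replicate 2. A call at 144 h without one at 72 h is therefore not shown to be a difference between the times.

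Control values differed between the time points as well. In si-NT, 35 of 36 members had a negative fold change from 72 h to 144 h, with a median of -0.52 where the median over all genes was 0.00. Both 144 h libraries lay below both 72 h libraries for 34 of 36 members, against 17.6% of all genes, and the reverse held for 1 member, ALDH18A1, against 17.3%. This drift was called for 0 members, as for 0.0% of all genes in either direction, while 24 members passed an unadjusted p of 0.05, all lower. Of the 16337 genes tested, 420 passed that unadjusted limit lower and 251 higher. Among the members the fold changes were as follows. DDIT3 had the most negative value (-1.54 ± 0.48, adjusted p = 0.974), followed by CHAC1 (-1.17 ± 0.43, adjusted p = 0.974) and ATF3 (-1.04 ± 0.30, adjusted p = 0.974), and the drift of ASNS was -0.53 ± 0.17, adjusted p = 0.974. The order rested on si-NT replicate 2 of 72 h. Without it the drift was -0.65 for DDIT3, -0.74 for CHAC1 and -0.83 for ATF3, which was then the most negative, and without replicate 1 of 72 h that of DDIT3 was -2.43. With each of the 4 si-NT libraries left out in turn, 35 of 36 values were negative. The 35 negative values held after median-of-ratios, quantile and spike-in scaling. The 144 h cultures were split and transfected again at 72 h, so time and this handling cannot be told apart, and the comparisons at each time point share their si-NT libraries with the drift.

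Depleted cells also held less of these transcripts at the later time. From 72 h to 144 h, 12 of 36 members were called lower, against 1.68% of all genes, and 0 higher, against 2.58%, with 0 at an unadjusted p of 0.05 in the higher direction. Of the 16337 genes tested, 1587 passed that unadjusted limit higher. The median over the members was -0.50, beside -0.52 in si-NT, and over all genes -0.04. Depleted cells had 4 libraries at each time and si-NT 2, so the counts of calls in the 2 comparisons cannot be set against each other. The 12 held all 5 tested serine and one-carbon genes, led by MTHFD2 (-0.86 ± 0.13, adjusted p = 0.00724), together with ASNS, PCK2, ATF4, SLC7A11, SLC7A5, XPOT and EIF4EBP1. SLC7A11 fell the most (-1.38 ± 0.25, adjusted p = 0.0144). The count was 7 without siRNA 3 replicate 1 of 72 h or without siRNA 2 replicate 1 of 144 h, and 0 after spike-in scaling.

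Summed levels gave the size of the programme in each library. The 37 members together held 4938 and 6032 TPM in si-NT at 72 h and 3264 to 4547 TPM in the 4 depleted libraries, which was 72.3% of the control mean. The sums at 144 h were 3758 and 4055 TPM in si-NT and 2450 to 2960 TPM in depleted libraries, 69.2% of the control mean. The groups did not overlap at either time, and the si-NT sum at 144 h was 71.2% of that at 72 h. The serine and one-carbon group had the lowest share of the 5 groups at 144 h, 54.9% of si-NT, and stood at 70.6% at 72 h. The feedback group stood at 64.8% and 59.9%, the transporters at 68.2% and 69.2%, the asparagine group at 81.3% and 78.2% and the transcription factors at 74.7% and 90.4%, with overlap for the transcription factors at both times and the asparagine group at 72 h. After spike-in scaling the sum of all members was 63.4% of si-NT at 72 h and 52.2% at 144 h. NUPR1 made up much of the transcription factor sum. Without NUPR1, an alternative chosen after seeing the data, the other 7 factors stood at 60.3% of si-NT at 72 h and 71.3% at 144 h, where they held 469 to 529 TPM in si-NT and 343 to 374 TPM in depleted libraries, without overlap. These sums were described without a test.

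**Figure D5:**
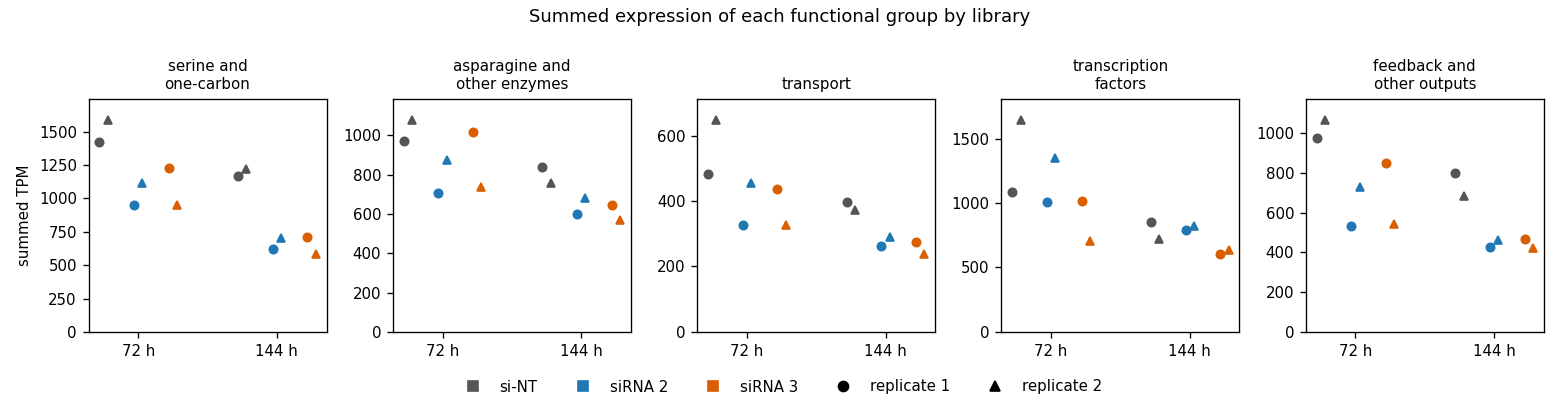
Summed TPM of each functional group (vertical axis, from 0) in each library at 72 h and 144 h, with grey for si-NT, blue for siRNA 2 and orange for siRNA 3, circles for replicate 1 and triangles for replicate 2. The serine and one-carbon sum at 144 h lies at 1165 and 1219 TPM in si-NT and at 583 to 710 TPM in depleted libraries.

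The siRNAs were then compared with each other and with the controls in a fit with 6 groups. Between siRNA 3 and siRNA 2, 0 of 36 members were called at 72 h or at 144 h, where 0.122% and 0.178% of all genes were called higher and 0.0184% and 0.153% lower. At an unadjusted p of 0.05, 881 of the 16337 genes tested passed higher and 480 lower at 72 h. At 144 h 557 passed higher and 1618 lower. Of the members, 1 passed higher and 1 lower at 72 h, and 1 lower and 0 higher at 144 h. The 2 extremes were the same genes at both times. NUPR1 was lower with siRNA 3, by -0.84 (95% interval -1.40 to -0.27) at 72 h and -0.75 (95% interval -1.32 to -0.19) at 144 h on the log2 scale. SESN2 was at the other end, at 0.48 (95% interval -0.20 to 1.15) and 0.44 (95% interval -0.24 to 1.11). For the genes called at 144 h the width of the interval varied, from ALDH18A1 at 0.16 (95% interval -0.04 to 0.35) through SHMT2 at -0.06 (95% interval -0.43 to 0.32) and ATF4 at -0.04 (95% interval -0.45 to 0.36) to DDIT4 at 0.25 (95% interval -0.55 to 1.05) and SLC7A11 at -0.04 (95% interval -0.91 to 0.84), and none of these results shows that the siRNAs act alike.

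Against the shared si-NT libraries at 72 h, siRNA 2 gave 1 call (SHMT2 lower, against 0.63% of all genes lower and 0.937% higher) and siRNA 3 gave 0 calls (against 0.226% lower and 0.428% higher), with 21 and 15 members lower at an unadjusted p of 0.05. Of the 16337 genes tested, 998 and 642 were lower at that unadjusted limit. At 144 h each siRNA gave 11 members called lower, against 7.67% of all genes for siRNA 2 and 10.4% for siRNA 3, and 0 called higher, against 13.6% and 9.83%. With siRNA 2 these were ATF4, the 5 tested serine and one-carbon genes, ASNS, ALDH18A1, EIF4EBP1, SLC7A11 and SLC3A2. With siRNA 3 they were ATF4, the same enzymes of serine and one-carbon metabolism, ASNS, ALDH18A1, EIF4EBP1, SLC7A11 and SLC7A5. Both comparisons use the same 2 control libraries. SHMT2 had -1.02 ± 0.17 (adjusted p = 0.00357) with siRNA 2 and -1.08 ± 0.17 (adjusted p = 0.00368) with siRNA 3, and SLC7A11 had -1.35 ± 0.39 (adjusted p = 0.0374) and -1.38 ± 0.39 (adjusted p = 0.0350). SLC3A2 stood at -0.66 ± 0.20 (adjusted p = 0.0456) and -0.49 ± 0.20 (adjusted p = 0.119), and SLC7A5 at -0.59 ± 0.24 (adjusted p = 0.111) and -1.01 ± 0.24 (adjusted p = 0.0191). The SHMT2 call of siRNA 2 at 72 h was lost when any 1 of the 12 libraries was left out. At 144 h the count for siRNA 2 was 5 without si-NT replicate 1, 3 without si-NT replicate 2, 4 without its own replicate 1 and 5 without its replicate 2, and for siRNA 3 it was 5 and 2 without si-NT replicates 1 and 2 and 2 without its own replicate 2. After spike-in scaling the counts at 144 h were 0 and 19. The spike-in share differed between replicates at that time, and its part in these counts was not tested.

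Related gene lists placed the programme beside its neighbours, with the members' share at 144 h (16 of 36 lower, against 10.8% of all genes) as the reference. Over all genes 13.6% were called higher at 144 h. Among 14 genes of the eIF2 sensors, initiation factors and phosphatases that lie upstream of ATF4, 1 was called higher at 144 h (EIF2B4, 0.44 ± 0.10, adjusted p = 0.00741) and 1 lower (EIF2S1, -0.35 ± 0.11, adjusted p = 0.0353), with 0 called at 72 h and 0 at 144 h after spike-in scaling. Of 17 tested further ATF4 targets, 2 were called lower at 144 h, near the 10.8% of all genes, and 1 higher. Those lower were SLC43A1 (-1.50 ± 0.18), a large neutral amino acid carrier, and BCAT1 (-0.73 ± 0.22), a branched-chain aminotransferase. The 1 called higher was TSPYL2 (0.46 ± 0.14). The median of the 17 at 144 h was -0.26, with 6 positive. At 72 h 2 of the 17 were called lower, against 0.557% of all genes, and 1 higher, against 1.13%, with a median of -0.36. In si-NT over time 16 of 17 were negative with a median of -0.52 and 0 called. The 2 called lower at 72 h were FGF21 (-1.80 ± 0.21), a secreted metabolic hormone, and SLC43A1 (-1.14 ± 0.18), and the 1 called higher was SLC36A4 (0.68 ± 0.15), with FGF21 and SLC36A4 named after their values were seen. The 20 cytosolic aminoacyl-tRNA synthetases, several of which are ATF4 targets, had 12 called lower and 0 higher with a median of -0.41, the smallest adjusted p being those of IARS1 (-0.63 ± 0.11), GARS1 (-0.64 ± 0.12) and YARS1 (-0.56 ± 0.10). After spike-in scaling 1 of the 20 was called, where 3.76% of all genes were called lower and 0.845% higher. At 72 h 0 of them were called, with a median of -0.14. Of 17 genes of endoplasmic reticulum folding, from the ATF6 and XBP1 branches of the unfolded protein response, XBP1 was called higher (0.79 ± 0.20) and HSP90B1 lower (-0.37 ± 0.11), with a median of 0.02 that was -0.37, with 0 called, after spike-in scaling. At 72 h 15 of these 17 were negative with a median of -0.35, and 2 were called lower, against 0.557% of all genes. Those 2 were HSP90B1 (-0.62 ± 0.11) and MANF (-0.83 ± 0.17), the latter named after its value was seen. In si-NT all 17 were negative from 72 h to 144 h, with a median of -0.29 and 0 called.

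Folate and replication genes were called lower at the same time, where 10.8% of all genes were. Of 13 tested folate cycle genes outside the members, 7 were called lower and 1 higher at 144 h, the smallest adjusted p belonging to MTHFD1 (-0.73 ± 0.12) and MTHFD1L (-0.88 ± 0.17). Of 20 S phase genes, 0 were called at 72 h and 15 were called lower at 144 h with a median of -0.85, including CDC6 (-1.26 ± 0.21), MCM2 (-1.10 ± 0.19) and MCM7 (-0.99 ± 0.17). After spike-in scaling 2 of the folate genes and 11 of the S phase genes were called lower at 144 h, against 3.76% of all genes. In si-NT the S phase genes differed in the opposite direction to the members, with 20 of 20 positive from 72 h to 144 h (median 0.47) under each scaling tried. The part of the lower S phase expression in the members' decrease at 144 h was not tested.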

How the data were processed

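RNA from 12 LNCaP libraries was prepared by the authors with a stranded mRNA kit after ERCC spike-in addition and sequenced as paired-end reads. The deposited values are TPM, made by the authors from reads aligned to hg19/GRCh37 with STAR (2.4.0j per the labels) and counted with featureCounts on GENCODE v19 genes. The methods also name a spike-in normalisation of counts. The program that made TPM and the strand setting of counting are not given in the sources used here. Each library sums to about 1000000 TPM with 92 ERCC rows included, so TPM are shares that a change in abundant transcripts can move, and they keep no depth, which leaves counting error unknown.

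Symbols and GRCh37 coordinates were taken from GENCODE v44 lifted to GRCh37, not the authors' release. Groups came from sample titles for the si-NT columns and from the column names, which give siRNA and time, for the depleted columns. Of the table's columns, 0 were left unmapped. The members, gene lists and rule for named genes were chosen with earlier results of these data known. All members were reported, those called at a time point (with ATF4 and ASNS) in every library, and of other lists the up to 3 genes called with the smallest adjusted p at 144 h, except that some items are not reported here. The test covered 16337 genes that reached 1 TPM in 2 or more libraries and used limma 3.58.1 in R 4.3.3 (lmFit and eBayes with trend, residual df 8) on log2(TPM + 1), with 4 groups sharing 1 variance and Benjamini-Hochberg adjustment. The siRNAs were compared in a fit with 6 groups. The code was tested on simulated data. Alternatives were a pseudocount of 0.1, no filter, a mean of at least 5 TPM, median-of-ratios, quantile and ERCC scaling, a replicate block, eBayes without trend, the 6 libraries of a time point, 6 groups, pooled si-NT, each library left out, and a log2 limit of 1.5. Sums, orders and motif shares were described without a test. Of the members, 18 overlap another annotated gene.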

Additional observations from a re-analysis of the deposited data

Results flagged for a closer look

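In groups of 4 libraries, the gap of the highest or lowest library to its nearest neighbour was divided by the range of the group and set against Dixon's 95% critical value. Of 74 such tests, 1 exceeded it, where chance flags about 1 in 20. PYCR1 in depleted cells at 72 h measured 318 TPM in siRNA 3 replicate 1, apart from 257, 260.0 and 266 TPM in the other 3 libraries, with a gap of 0.856 of the range.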

How the results depend on the processing

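Of 1656 recomputed fold changes of SMARCA4-depleted against si-NT cells for the members, 1499 kept their direction and their side of the threshold, 98 lost and 29 gained a call, and 30 changed sign, all 30 of them in members not called at that time. Members called lower at 72 h numbered 3, and 1 without the filter, 7 after median-of-ratios scaling, 0 after spike-in scaling, 0 in a fit to the 6 libraries of that time, 1 with 6 groups, 0 with the limit of 1.5, and 0 to 4 with each library left out. At 144 h they numbered 16, and 9 without the filter, 7 after spike-in scaling, 0 with the limit of 1.5, and 5 to 16 with each library left out. The decrease from 72 h to 144 h in depleted cells, called for 12, was called for 0 after spike-in scaling and for 7 to 11 with a library left out. With siRNA 2 at 72 h the count of 1 became 6 after median-of-ratios and 2 after quantile scaling, and 0 without the filter, after spike-in scaling, with the replicate block, without trend and with each library left out (0 to 0). At 144 h the count of 11 for siRNA 2 became 6 without the filter, 0 after spike-in scaling and 3 to 11 with a library left out, with 0 to 1 called higher, and that for siRNA 3 became 7 without the filter, 19 after spike-in scaling and 2 to 12 with a library left out. Over all genes, the share called lower at 72 h moved from 0.557% to 0.442% without the filter and 0.147% after spike-in scaling. It was 0.9% after median-of-ratios scaling, 0.049% in the fit to 6 libraries and 0.673% with 6 groups. At 144 h it moved from 10.8% to 4.75% without the filter and 3.76% after spike-in scaling. The cause was not tested for any of these, except that leaving out libraries or genes changes what is fitted.

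Sign changes were as follows. With si-NT of both times combined, NUPR1 (0.36) and CBS (0.063) turned positive at 72 h, and ATF5 (-0.060), NUPR1 (-0.19) and CTH (-0.22) turned negative at 144 h. At 144 h ATF5 and CTH were -0.018 and -0.025 after median-of-ratios, -0.022 and -0.045 after quantile and -0.38 and -0.35 after spike-in scaling, which also gave NUPR1 -0.14. With libraries left out, the ranges that crossed 0 at 72 h were those of NUPR1 (-0.47 to 0.27) and CBS (-0.29 to 0.00142), and at 144 h those of ATF3 (-0.31 to 0.19), ATF5 (-0.080 to 0.11), SESN2 (-0.21 to 0.00752), VLDLR (-0.24 to 0.19), GPT2 (-0.22 to 0.20), CTH (-0.064 to 0.069), CBS (-0.37 to 0.035) and SLC6A9 (-0.25 to 0.089). After spike-in scaling the summed levels at 144 h were 52.2% of si-NT for all members, 67.8% for transcription factors, 58.8% for the asparagine group, 44.4% for feedback genes, 42.0% for serine and one-carbon genes and 52.3% for transporters. With NUPR1 left out of the sum, an alternative chosen after seeing the data, the transcription factors stood at 71.3% at 144 h in place of 90.4%. The longer motif was found in 0 member promoters.

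No clear pairing of libraries by replicate number was seen, although correlations cannot show that there was none. Correlations of replicate differences between 15 pairs of groups ran from -0.23 to 0.30, and 2 exceeded 0.1. With a replicate block 2 members were called lower at 72 h, 15 at 144 h and 9 for depleted cells over time. Each si-NT group held 2 libraries, so 1 control library decided many calls, and TPM carry no depth from which a limit of detection could be set.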
